A study of Mus musculus with 11 samples.

Results

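The chemokine ligand genes Ccl2, Ccl3, Ccl4, Ccl6, Ccl7, Ccl8, Ccl9, Cxcl2, Cxcl16 and Pf4, were followed in macs of 5 mouse tissues from WT mice and from mice with CRE-driven deletion of Zeb2, the gene of the transcription factor ZEB2. They were taken as a named list, 10 of the 27998 genes counted in each library, and all 10 were found in every table. The members were listed by name and not by a threshold on these data, but they were chosen with earlier results of these data known. Single-cell RNA sequencing (10x Genomics, 3′ end counting, in which each captured mRNA molecule is counted as 1 unique molecular identifier, UMI) had been carried out on microglia (brain), Kupffer cells (KCs, liver), alveolar macs (AMs, lung), colonic macs (CMs) and splenic macs (SMs). For each tissue there was 1 WT library, from Zeb2fl/fl mice (both Zeb2 alleles flanked by loxP sites) without CRE, and 1 Zeb2KO library, from Zeb2fl/fl mice that carried a CRE transgene. For liver there was 1 more WT library, from CRE-negative Nr1h3fl/fl mice. Mice were young adults on a C57Bl/6 background with littermate controls, and no treatment is named. The labels name Fcgr1-cre for every Zeb2KO library, whereas in the study's methods the driver was Clec4f-cre in liver, Itgax-cre in lung and Fcgr1-cre in brain, colon and spleen. The study also found CRE activity in cells other than macs, among them B cells for Clec4f-cre and B cells, T cells and dendritic cells for Fcgr1-cre. According to the study, deletion was incomplete in liver, lung, colon and spleen, so these Zeb2KO libraries hold Zeb2+/- cells beside Zeb2-/- cells, and a level summed over a library is that of the mixture. Macs were sorted before sequencing, KCs on Clec4F, AMs on SiglecF and CD11c, microglia as CD45int cells, and CMs and SMs as Ly6C-, Ly6G- and SiglecF- cells, all with CD64 and F4/80. The study reported higher Siglecf in Zeb2-/- CMs and SMs, and how many such cells the SiglecF- gate left out was not tested. How many mice were pooled for a library was not given in the sources used here.

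Chemokines are small secreted proteins that direct the movement of leukocytes through receptors on the responding cell. CCL2 and CCL7 act on CCR2 and draw monocytes. CCL3 acts on CCR1, and CCL3 and CCL4 are both made rapidly by activated macs. CCL6 and CCL9 are rodent ligands of CCR1. Mouse CCL8 acts on CCR8. CXCL2 acts on CXCR2 and draws neutrophils, CXCL16 is made as a membrane-bound ligand of CXCR6, and PF4 (also called CXCL4) is best known from platelet granules and is also made by some tissue macs.

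The 10 genes lie in few places of the genome (GRCm38/mm10, GENCODE M21 annotation). Ccl2, Ccl7 and Ccl8 lie within 81.2 kb on chromosome 11, from 82035571 to 82116799, in the order named. Ccl9, Ccl6, Ccl3 and Ccl4 lie within 91.8 kb further along chromosome 11, from 83572919 to 83664683. Cxcl16 stands alone on chromosome 11, from 70453983 to 70459984. Pf4 and Cxcl2 lie on chromosome 5, from 90772435 to 90905938. The RefSeq promoter table (GRCm38.p6, 250 bases before to 50 bases after the start) held 6 of the 10 genes; Ccl2, Ccl4, Ccl7 and Cxcl16 had no entry. Both strands were searched for CACCT, the core to which zinc fingers of ZEB proteins are known to bind, and for a 10-letter consensus of NF-kB sites. The search found CACCT in 1 of the 6 windows (Ccl9, 21 bases before the start), against 51.9% of 32851 windows in the table. The NF-kB consensus was found in 1 of the 6 (Cxcl2, 97 bases before the start), against 0.341% of the table. The windows of 3 members are printed 5′ to 3′ on the strand of the gene, with the match in capitals. Ccl3 is shown as a ligand called higher in 4 of the 5 Zeb2fl/fl pairs, Ccl9 as one called in opposite directions in 2 of them, and Cxcl2 as one that was not 2-fold different in any Zeb2fl/fl pair. The windows lie at chr11:83649329-83649628 (Ccl3, minus strand), chr11:83578587-83578886 (Ccl9, minus strand) and chr5:90903649-90903948 (Cxcl2, plus strand).
Ccl3: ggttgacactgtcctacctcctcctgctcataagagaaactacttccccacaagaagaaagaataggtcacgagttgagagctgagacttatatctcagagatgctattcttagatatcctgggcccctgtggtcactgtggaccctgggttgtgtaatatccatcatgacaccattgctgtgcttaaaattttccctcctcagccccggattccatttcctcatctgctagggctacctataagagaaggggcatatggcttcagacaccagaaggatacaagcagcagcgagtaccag
Ccl9: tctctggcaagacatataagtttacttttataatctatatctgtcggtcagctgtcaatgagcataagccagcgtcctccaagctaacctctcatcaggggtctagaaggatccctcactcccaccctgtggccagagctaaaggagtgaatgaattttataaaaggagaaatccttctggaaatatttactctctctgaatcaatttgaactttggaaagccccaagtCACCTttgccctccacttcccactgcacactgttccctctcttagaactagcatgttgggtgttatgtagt
Cxcl2: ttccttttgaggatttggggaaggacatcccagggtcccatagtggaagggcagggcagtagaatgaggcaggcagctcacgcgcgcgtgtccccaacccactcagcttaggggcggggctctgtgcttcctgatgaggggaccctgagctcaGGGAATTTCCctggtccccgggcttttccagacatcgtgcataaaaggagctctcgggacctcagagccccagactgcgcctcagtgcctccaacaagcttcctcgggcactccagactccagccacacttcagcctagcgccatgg
The Ccl3 window, without a capital, held neither motif. A match is a run of letters and was not tested as a site.

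The 11 libraries held 51712 barcodes, the number given in the labels, and 11133411 to 47400786 UMIs each. After the cell filter and removal of clusters that met a marker rule for another cell type (0% to 22.3% of filtered cells), 44927 cells remained, called macs below, 2830 to 6974 per library, with medians of 2223 to 9208 UMIs per cell. The marker rule kept an SM cluster led by Fcer2a and Irf4 (5.21% of filtered WT and 3.85% of filtered Zeb2KO SMs) and a CM cluster led by Hhip and Actg2 (0.852% and 0.734%), whose leading genes are those of B cells and smooth muscle. A KC cluster led by Cxcl9 was kept too (1.78% of filtered WT and 1.44% of filtered Zeb2KO KCs). Against the other KC-library clusters its dendritic cell markers averaged a log2 ratio of 3.86 and its macrophage markers -0.487. Only 1 of those dendritic cell markers was seen in at least 20% of its cells. Any pair of libraries shared at most 76 barcodes (at most 1.45% of the smaller). All 10 macrophage markers checked, Csf1r and Adgre1 among them, had at least 20 UMIs per 1000000 UMIs of the library (CPM) in 10 of the 11 libraries, and 7 of 10 did in WT AMs. Zeb2 itself was counted at 312 CPM to 730 CPM in the WT libraries and at 478 CPM to 1747 CPM in the Zeb2KO libraries. Tags from the 3′ end do not read an internal floxed part of a transcript, so this level is no check of the deletion.

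The levels below are UMIs of a gene summed over the macs of a library and divided by all their UMIs, in CPM. With 1 library for each tissue and genotype, a difference within a tissue could not be tested. The exact Poisson 95% interval of a level covers counting error only. For the 82 levels at or above 20 CPM its half-width was at most 12.1% of the level, with a median of 2.71%. A difference between 2 libraries was called at a size of 1 or more on the log2 scale (ratio of the levels after adding 1 CPM to each), provided that the higher library reached 20 CPM. The 2 WT liver libraries, compared in the same way, showed how far libraries of 1 tissue can differ without deletion of Zeb2.

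Ccl2, a monocyte attractant, was higher in all 5 Zeb2KO libraries than in the WT library of the tissue, by 4.06-fold in microglia and 8.88-fold in AMs. In the WT libraries its level was 538 CPM in CMs, 292 CPM in microglia, 78.6 CPM in KCs (73.6 CPM in Nr1h3fl/fl WT KCs), 35.7 CPM in AMs and 3.29 CPM in SMs. In the Zeb2KO libraries it was 1188 CPM in microglia, 895 CPM in CMs, 325 CPM in AMs, 99.4 CPM in KCs and 18.8 CPM in SMs. Microglia stood above CMs in the Zeb2KO libraries and below them in WT. The log2 ratios were 3.15 in AMs, 2.20 in SMs (below the 20 CPM floor), 2.02 in microglia, 0.73 in CMs and 0.34 in KCs. The AM and microglia ratios were called, 2 of the 5.

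Ccl7, the neighbour of Ccl2, was highest in CMs in both genotypes and was low in the WT libraries of the other tissues. Its WT level was 525 CPM in CMs, 27.7 CPM in KCs (24.9 CPM in Nr1h3fl/fl WT KCs), 15.5 CPM in microglia, 12.7 CPM in AMs and 0 CPM in SMs. Its Zeb2KO level was 915 CPM in CMs, 122 CPM in microglia, 72.2 CPM in AMs, 26.03 CPM in KCs and 9.02 CPM in SMs. It was 7.44-fold higher in Zeb2KO microglia and 5.35-fold higher in Zeb2KO AMs, and in both pairs only the Zeb2KO library reached 20 CPM. Without 251 AMs of 1 cluster led by C1qa the AM levels were 25.8 CPM and 12.7 CPM, a log2 ratio of 0.97 that was no longer called. In SMs no UMI was counted in WT, which allows 0.366 CPM (3 UMIs in that library), so the Zeb2KO level was at least 24.6-fold higher, on 87 UMIs. Of these, 53 lay in 13 cells of 1 cluster, and without that cluster the Zeb2KO level was 3.54 CPM.

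Ccl8 was a colonic ligand in these libraries. It had 742 CPM in WT CMs and 1035 CPM in Zeb2KO CMs (log2 ratio 0.48). The next level was 9.92 CPM in Nr1h3fl/fl WT KCs, followed by 6.84 CPM in WT KCs and 2.12 CPM in Zeb2KO KCs. SMs had 0.122 CPM (WT) and 0.207 CPM (Zeb2KO), each on 1 to 2 UMIs. Microglia and AMs had 0 UMIs in both genotypes, which allows at most 0.243 CPM in WT microglia and less in the other 3 libraries. WT CMs thus stood 94.7-fold above WT KCs on the CPM plus 1 scale.

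Ccl3 was higher in Zeb2KO than in WT macs of every tissue, and was called in 4 of them. Its WT level was 1387 CPM in microglia, 782 CPM in CMs, 215 CPM in AMs, 36.6 CPM in KCs (32.7 CPM in Nr1h3fl/fl WT KCs) and 6.71 CPM in SMs. Its Zeb2KO level was 4662 CPM in microglia, 1076 CPM in AMs, 946 CPM in CMs, 197 CPM in KCs and 30.7 CPM in SMs. The log2 ratios were 2.39 in KCs, 2.32 in AMs, 2.04 in SMs and 1.75 in microglia, against 0.27 in CMs. Against the Nr1h3fl/fl WT library the ratio in KCs was 2.55, and the 2 WT liver libraries differed by 0.16. In SMs only the Zeb2KO library reached 20 CPM. With all cells that passed the filter, other cell types among them, the SM levels were 17.2 CPM in WT and 33.8 CPM in Zeb2KO. That ratio, 0.93, was no longer called.

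Ccl4, the neighbour of Ccl3, followed it in 3 of the 4 tissues. Its WT level was 2411 CPM in microglia, 1109 CPM in CMs, 83.8 CPM in AMs, 75.5 CPM in SMs and 38.0 CPM in KCs (41.4 CPM in Nr1h3fl/fl WT KCs). Its Zeb2KO level was 5823 CPM in microglia, 1440 CPM in CMs, 345 CPM in AMs, 200.5 CPM in KCs and 91.4 CPM in SMs. It was 5.17-fold higher in Zeb2KO KCs, 4.08-fold higher in Zeb2KO AMs and 2.41-fold higher in Zeb2KO microglia. In SMs, where Ccl3 was called, the log2 ratio of Ccl4 was 0.27.

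Ccl6 had its highest levels in AMs and differed in sign between lung and liver. WT levels were 3880 CPM in AMs, 1091 CPM in Nr1h3fl/fl WT KCs, 823 CPM in WT KCs, 505 CPM in CMs, 156 CPM in microglia and 85.4 CPM in SMs. Zeb2KO levels were 9500 CPM in AMs, 595 CPM in CMs, 489 CPM in KCs, 165 CPM in microglia and 97.2 CPM in SMs. The 2.45-fold difference in AMs was called. In KCs the level was lower in Zeb2KO, by a log2 ratio of -0.75 against the Zeb2fl/fl library (not called) and of -1.16 against the Nr1h3fl/fl library (called), while the 2 WT liver libraries stood 0.41 apart.

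Ccl9 was called in opposite directions in 2 tissues. WT levels were 610 CPM in CMs, 340 CPM in microglia, 42.9 CPM in WT KCs (14.4 CPM in Nr1h3fl/fl WT KCs), 29.1 CPM in AMs and 1.46 CPM in SMs. Zeb2KO levels were 555 CPM in CMs, 203 CPM in AMs, 100 CPM in microglia, 32.6 CPM in KCs and 5.70 CPM in SMs. Without the same small KC cluster the KC levels were 14.98 CPM in WT and 19.2 CPM in Zeb2KO, which turned the log2 ratio from -0.38 to 0.34, neither called. Ccl9 was 3.36-fold lower in Zeb2KO microglia (log2 ratio -1.75) and 6.78-fold higher in Zeb2KO AMs (log2 ratio 2.76). The difference between these ratios was not tested. Among the microglia calls it was the 1 member that was lower, while Ccl3 and Ccl4 from the same stretch of chromosome 11 were higher.

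Cxcl2, the neutrophil attractant, had 2 high tissues and was not called in any Zeb2fl/fl pair. WT levels were 1328 CPM in AMs, 1132 CPM in CMs, 126 CPM in SMs, 38.9 CPM in KCs (8.08 CPM in Nr1h3fl/fl WT KCs) and 22.1 CPM in microglia. Zeb2KO levels were 1422 CPM in CMs, 1404 CPM in AMs, 118 CPM in SMs, 35.3 CPM in microglia and 28.8 CPM in KCs. The log2 ratios ran from -0.42 in KCs to 0.65 in microglia, none called. Without a small KC cluster led by Alox15, described below, the KC levels were 12.8 CPM in WT and 15.9 CPM in Zeb2KO, and the ratio turned to 0.29. Against the Nr1h3fl/fl WT library, with its 8.08 CPM, the KC ratio was 1.72 and called. The order of AMs and CMs in WT rests on 1.17-fold, less than the 4.39-fold by which the 2 WT liver libraries differed for this gene.

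Of the members and tissues above the floor, Cxcl16 in AMs had the largest ratio on the CPM plus 1 scale. WT levels were 548 CPM in CMs, 263 CPM in KCs (311 CPM in Nr1h3fl/fl WT KCs), 68.3 CPM in microglia, 6.47 CPM in SMs and 2.40 CPM in AMs. Zeb2KO levels were 502 CPM in CMs, 181 CPM in KCs, 81.8 CPM in microglia, 80.1 CPM in AMs and 10.2 CPM in SMs. AMs, the lowest WT tissue, came to the level of microglia in Zeb2KO, a 23.8-fold difference (log2 ratio 4.57), with the Zeb2KO library alone above 20 CPM. In the other tissues the log2 ratios lay between -0.54 (KCs) and 0.58 (SMs).

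Pf4 was the most abundant member in CMs. WT levels were 4823 CPM in CMs, 402 CPM in KCs (252 CPM in Nr1h3fl/fl WT KCs), 8.91 CPM in SMs, 3.49 CPM in microglia and 2.88 CPM in AMs. Zeb2KO levels were 4097 CPM in CMs, 441 CPM in KCs, 32.5 CPM in SMs, 7.16 CPM in AMs and 1.95 CPM in microglia. The order CMs, KCs and then the other 3 held in both genotypes. A platelet origin was looked at through 5 platelet genes (Ppbp, Gp5, Tubb1, Treml1 and Gp1bb). Cells with a UMI of any of them were 10.0% of WT CMs and 7.34% of Zeb2KO CMs, and held 16.0% and 11.8% of the Pf4 UMIs. In CMs this was nearly all Ppbp, itself a chemokine ligand gene, with 719 UMIs in WT and 405 in Zeb2KO. The others had few UMIs there (Gp1bb 3 and 1, Treml1 1 and 4, Gp5 1 and 0, Tubb1 0 and 1). In SMs, cells with a UMI of any of the 5 were 0.621% of WT and 0.967% of Zeb2KO cells. They held 35.6% and 13.7% of the Pf4 UMIs, and in Zeb2KO AMs 0.464% of cells held 9.74%. In KCs, cells with such a UMI held 0.225% (WT) and 0.281% (Zeb2KO) of the Pf4 UMIs.

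**Figure D1:**
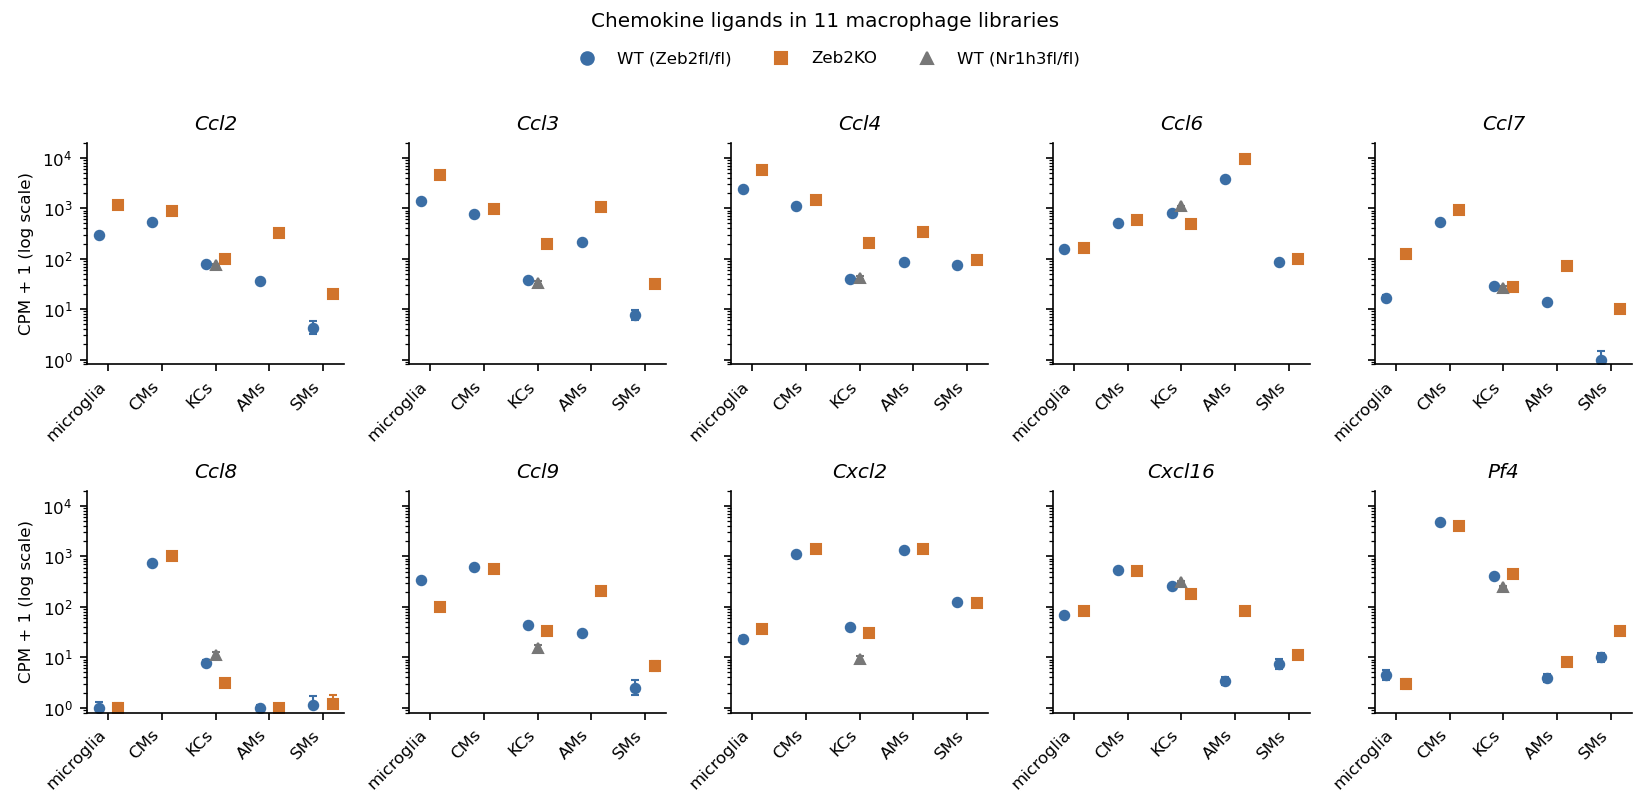
Level of each ligand (CPM plus 1, log scale) in the 11 libraries by tissue, with exact Poisson 95% intervals, mostly smaller than the symbols; each symbol is 1 library. Among the WT libraries 6 members are highest in CMs, and Ccl3 and Ccl4 in microglia.

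Among the 5 WT tissues, 6 of the 10 members were highest in CMs (Ccl2, Ccl7, Ccl8, Ccl9, Cxcl16 and Pf4), 2 in microglia (Ccl3 and Ccl4) and 2 in AMs (Ccl6 and Cxcl2). For Ccl9 the lead of CMs over microglia was 1.79-fold (log2 ratio 0.84), less than the 1.51 by which the 2 WT liver libraries differed for this gene. SMs were lowest for Ccl2, Ccl3, Ccl6, Ccl7 and Ccl9. The 10 members together took 11312 CPM in WT CMs, 5590 CPM in WT AMs, 4696 CPM in WT microglia, 1757 CPM in WT KCs and 314 CPM in WT SMs. In the Zeb2KO libraries they took 12403 CPM in CMs, 13013 CPM in AMs, 12180 CPM in microglia, 1696 CPM in KCs and 414 CPM in SMs. The sums of AMs and microglia thus came up to that of CMs in the Zeb2KO libraries, while KCs and SMs stayed lowest. The sums rested on different members: Ccl6 alone had 9500 CPM in Zeb2KO AMs. In Zeb2KO microglia Ccl4 had 5823 CPM and Ccl3 4662 CPM, and in Zeb2KO CMs Pf4 had 4097 CPM. In 3′ counting a molecule gives 1 UMI whatever the length of its transcript, so the sum is a share of molecules.

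Counted over the members, calls were most frequent in AMs, and no member reached 2-fold in CMs. In AMs 7 of the 8 members above the floor were called, all higher, while 11.7% of the 5812 genes above the floor were called there (4.35% higher, 7.33% lower). In microglia 5 of 8 were called, 4 higher and 1 lower, against 8.34% of 5922 genes (4.27% higher, 4.07% lower). In KCs 2 of 9 were called, both higher, against 4.67% of 5394 genes (3.43% higher, 1.24% lower). In SMs 2 of 5 were called, both higher, against 3.12% of 6185 genes (2.3% higher, 0.825% lower). Both, Ccl3 and Pf4, reached 20 CPM only in the Zeb2KO library, and neither call held throughout. The log2 ratio of Pf4 was 0.07 without 13 cells. That of Ccl3 was 0.93 with all filtered cells, which puts back the clusters of other cell types. In CMs none of 10 was called, against 1.56% of 5137 genes (1.07% higher, 0.487% lower), in a Zeb2KO library of which 23.7% of cells lay in clusters apart from WT (defined below). The median log2 ratio of the members above the floor was 2.37 in AMs, 0.96 in microglia, 0.30 in CMs, 0.27 in SMs and -0.09 in KCs, while that of all genes above the floor was -0.31 in AMs, -0.09 in microglia, 0.05 in CMs, -0.02 in SMs and 0.02 in KCs. Markers of monocytes (5 genes, Ccr2 among them) summed to 80.2 CPM in Zeb2KO and 10.5 CPM in WT AMs, with Ly6c2 at 55.7 CPM and 1.42 CPM and none of the 5 at 0 UMIs in either. In AMs 7 neutrophil markers summed to 336 CPM and 36.6 CPM and 6 gut epithelium markers, Krt8 among them, to 283 CPM and 6.08 CPM, with 2 of each list at 0 UMIs in Zeb2KO. The monocyte sums were 38.6 CPM and 6.32 CPM in microglia, 212 CPM and 165 CPM in CMs, 490 CPM and 600 CPM in KCs and 215 CPM and 73.9 CPM in SMs. The part of these markers in the ligand levels was not tested. Relative to the genes of the same pair, then, every AM ratio stood 0.31 higher than given.

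Against the Nr1h3fl/fl WT library, 5 of 9 members were called in Zeb2KO KCs, Ccl3, Ccl4, Ccl9 and Cxcl2 higher and Ccl6 lower, against 8.35% of 5751 genes (4.28% higher, 4.07% lower). Between the 2 WT liver libraries, 2 of 9 members were called, Ccl9 (log2 ratio -1.51) and Cxcl2 (-2.13), both lower in Nr1h3fl/fl WT, against 1.3% of 5555 genes (0.504% higher, 0.792% lower). Ccl3 and Ccl4 were the 2 members called against both controls, so the calls of Ccl6, Ccl9 and Cxcl2 depended on the control library.

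**Figure D2:**
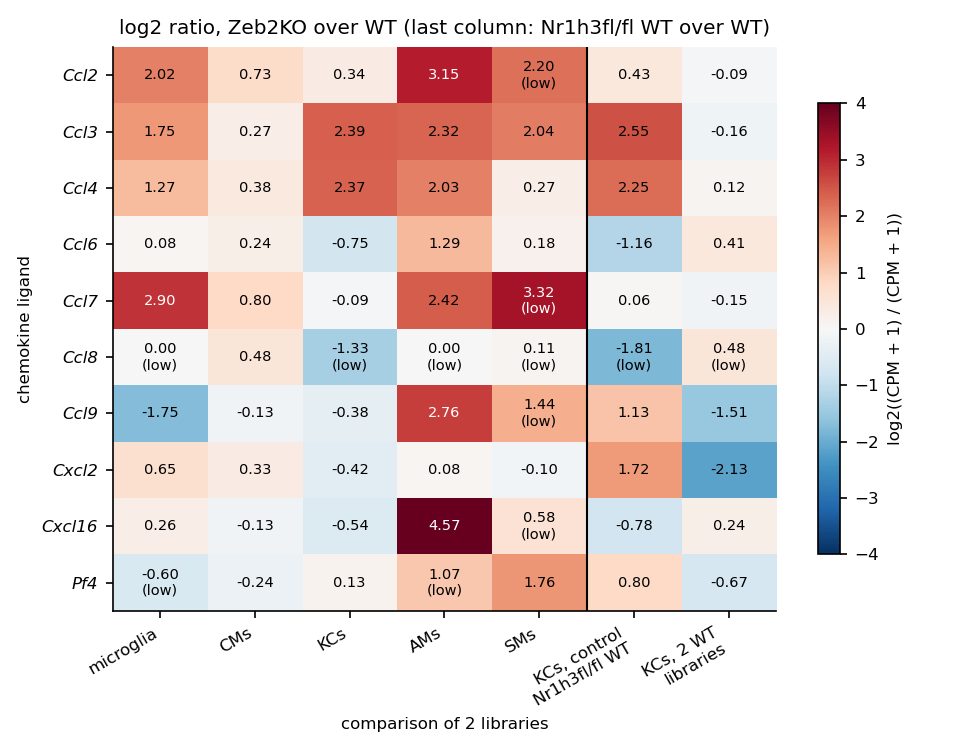
log2 ratio of CPM plus 1 for each ligand (rows) in each pair of libraries (columns), red for higher and blue for lower in the library named first (Zeb2KO in the first 6 columns), with "low" where neither library reached 20 CPM; the last column compares the 2 WT liver libraries. The ratios of Ccl3 are positive in all 5 tissues and reach 2.39, whereas the CM column stays between -0.24 and 0.80.

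The only test the design allows asks for a shift shared by all 5 tissues, with each pair of libraries as 1 replicate and tissue as a blocking factor. The log2 fold change was 1.87 ± 0.36 for Ccl3, 2.01 ± 0.74 for Ccl7, 1.79 ± 0.50 for Ccl2 and 1.34 ± 0.38 for Ccl4 (± SE). In edgeR's quasi-likelihood test no member reached the threshold (adjusted p of 0.05), nor did any of the 14029 genes tested (0.0%, smallest adjusted p 0.0925). The adjusted p was 0.201 for Ccl3, 0.301 for Ccl2, 0.304 for Ccl4 and 0.403 for Ccl7, and at least 0.662 for the other 6 members. These 4 members, of 10, had an unadjusted p under 0.05, as had 1574 genes (11.2%) of all tested. With DESeq2 and the same design, 3 members passed: Ccl3 (adjusted p 1.46e-05), Ccl2 (adjusted p 0.00369) and Ccl4 (adjusted p 0.0130), against 2.53% of 13537 genes. Ccl2 and Ccl3 were higher in 5 of 5 Zeb2KO libraries and so was Ccl4, while Ccl7 was higher in 4 of 5.

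The share of cells with at least 1 UMI of a member was compared after each cell had been thinned to 1500 UMIs, so that deeper cells do not count more. Ccl3 was seen in 79.2% of Zeb2KO and 40.3% of WT microglia, in 52.0% and 19.1% of AMs, in 15.2% and 4.42% of KCs and in 51.6% and 47.1% of CMs. Unthinned, the same shares were 95.1% and 59.4%, 75.5% and 33.6%, 33.8% and 11.5%, and 84.4% and 83.6%. Cxcl16 was seen in 8.73% of Zeb2KO AMs and 0.331% of WT AMs (27.2% and 0.789% unthinned), and Ccl9 in 8.97% of Zeb2KO and 32.0% of WT microglia (20.6% and 56.6% unthinned). Ccl6 was seen in nearly every AM of both genotypes (98.6% and 96.8%), so that its higher level there came with more UMIs per cell. Exact binomial 95% intervals of the 2 libraries did not overlap, with the higher share in Zeb2KO, for 7 of 8 members above the floor in AMs, 6 of 10 in CMs, 5 of 8 in microglia, 3 of 9 in KCs and 1 of 5 in SMs, against 16.4%, 13%, 14.6%, 17.2% and 11.9% of all genes above it. With the lower share in Zeb2KO they did not for 3 members in CMs, 2 in KCs, 1 in AMs, 1 in microglia and 0 in SMs, against 7.28%, 14.2%, 50.9%, 20.4% and 10.6% of genes. The percentages over all genes come from a second random draw of the thinning, in which the members were 5 higher and 2 lower in CMs and 2 higher in KCs, with the other counts as given. These intervals cover counting of cells and not the spread between mice. In SMs, 836 WT and 542 Zeb2KO cells with under 1500 UMIs were left out, in WT AMs 28, and none elsewhere.

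**Figure D3:**
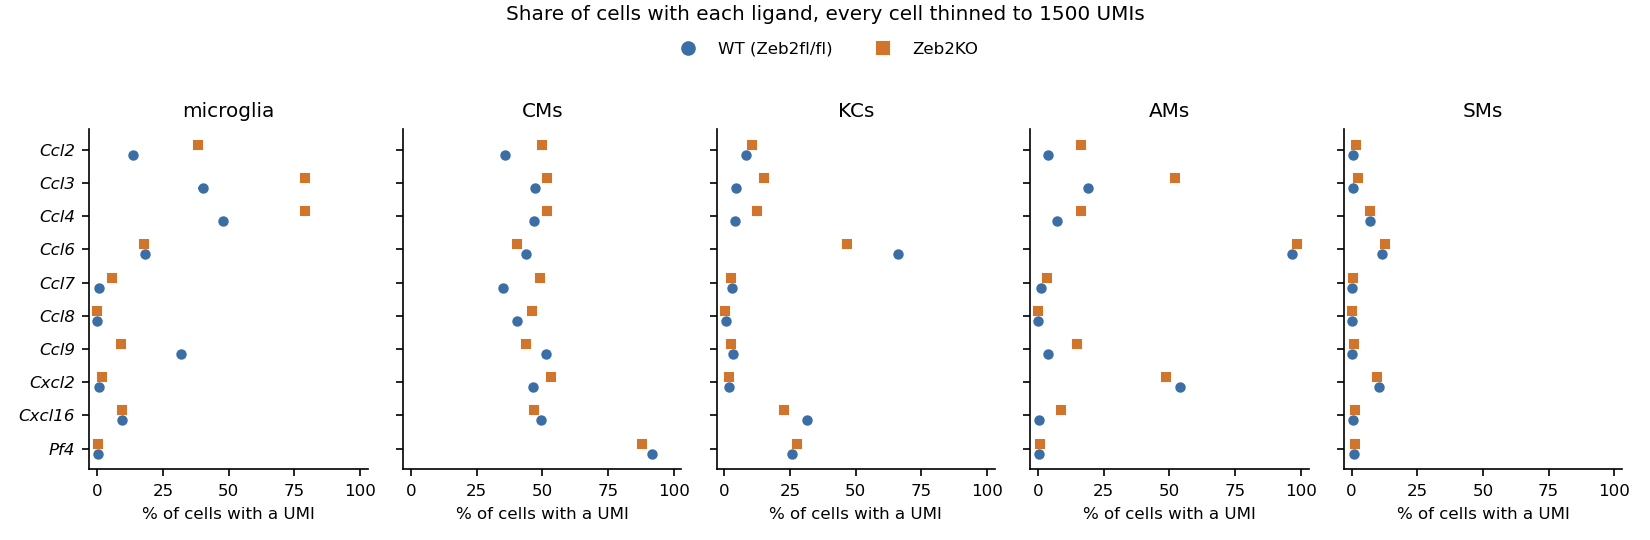
Share of cells (%) with at least 1 UMI of each ligand after thinning every cell to 1500 UMIs, by tissue, with exact binomial 95% intervals mostly smaller than the symbols; circles are WT and squares Zeb2KO. The widest gaps are those of Ccl3 in microglia (40.3% and 79.2%) and in AMs (19.1% and 52.0%).

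RNA released from broken cells can give UMIs in cells that do not make a gene, so the members were also counted in cells of other types in the libraries. Whether those cells were free of mac RNA was not tested: macrophage markers averaged a log2 ratio of -0.62 and -0.0463 against the other KC-library clusters in the 2 endothelial-like clusters. In Zeb2KO KCs, Ccl3 was seen in 15.2% of macs after thinning, in 11.5% of the 460 endothelial-like cells and in 4.69% of the 128 B cell-like cells of the library (median depths 5855, 7050 and 3805 UMIs), and its level was 197 CPM, 130.3 CPM and 49.6 CPM. Ccl4 was seen in 12.2% of macs, 9.57% of endothelial-like and 5.47% of B cell-like cells. In WT KCs, Ccl4 (4.04% of macs) and Ccl2 (8.15%) were not above the shares in B cell-like cells (4.90% and 6.99%, 143 cells) by more than counting error. In Zeb2KO KCs the level of Ccl2 was 99.4 CPM in macs and 107 CPM in B cell-like cells. Cxcl16 was seen in more endothelial-like cells (41.7% in WT, 35.2% in Zeb2KO) than KCs (31.5% and 22.6%), at 321 CPM and 279 CPM. In CMs, where the members are abundant, the 134 fibroblast-like cells of WT also had UMIs of all 10, from 10.4% (Ccl2) to 62.7% (Pf4), below the shares in macs (35.7% and 91.9%). In WT SMs, Cxcl2 was seen in 10.5% of macs and 10.4% of 134 erythroid-like cells, at 126 CPM and 100.4 CPM. Lung and brain libraries held too few other cells for this comparison.

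Within a tissue, the members were spread unevenly over cells, and the clusters that held most of them differed between members. The clusters were made without any chemokine ligand or receptor among the variable genes. In WT microglia, 48.8% of the cells formed a cluster with 48551 CPM of immediate early genes (16 genes such as Fos and Jun that respond within minutes to stimulation or tissue dissociation), and it held Ccl3 at 1862 CPM and Ccl4 at 3343 CPM. The other large WT microglia cluster, 48.4% of the cells with 9260 CPM of those genes, held Ccl3 at 545 CPM and Ccl4 at 712 CPM. In Zeb2KO microglia the same 2 genes were at 9668 CPM and 12710 CPM in a cluster of 17.1% of the cells with 44156 CPM of immediate early genes, led by Pim1, Maff and Il1b, and at 943 CPM and 884 CPM in one of 28.6% with 5471 CPM. In both genotypes the larger clusters with more immediate early gene UMIs thus had more Ccl3 and Ccl4. A WT cluster of 57 cells led by Lgals3 went against that order, with 20521 CPM of immediate early genes, Ccl3 at 4298 CPM and Ccl4 at 9382 CPM, and so did a Zeb2KO cluster led by Spp1 (5.12% of the cells), with 19969 CPM, 7910 CPM and 8700.3 CPM. Without the cluster led by Pim1 the microglia log2 ratio of Ccl4 was 0.83 and no longer called, while those of Ccl3, Ccl2 and Ccl7 were 1.36, 1.64 and 2.79. Summed over the libraries, immediate early genes were lower in Zeb2KO microglia (23987 CPM) than in WT (31079 CPM), whereas the 17 NF-kB response genes were higher (7263 CPM and 3385 CPM). Their part in the levels of the ligands was not tested.

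In AMs, 52.4% of the Zeb2KO cells lay in a cluster led by Krt8, Ceacam10 and Auts2 that held no WT cell. It held Ccl6 at 11908 CPM, Ccl3 at 1314 CPM, Ccl9 at 242 CPM and Cxcl16 at 84.8 CPM. A second cluster of 251 cells (4.01% of Zeb2KO AMs), led by the complement genes C1qa, C1qb and C1qc, held 66.1% of the Ccl7 UMIs, 63.7% of the Pf4 UMIs and 43.4% of the Ccl2 UMIs of that library. Without these cells the AM log2 ratio was 0.97 for Ccl7 (no longer called), 2.42 for Ccl2 and 2.28 for Ccl3. The Ccl6, Ccl9 and Cxcl16 ratios were 1.31, 2.76 and 4.42 without them. Cxcl2 in WT AMs was highest (3707 CPM) in a cluster of 13.7% of the cells led by Tnf, Idi1 and Egr1, which held 0.191% of the Zeb2KO AMs that passed the filter. In Zeb2KO AMs its highest level in a cluster was 5023 CPM. Without the C1qa-led cells its Zeb2KO AM level was 1205 CPM, in place of 1404 CPM.

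In KCs, Zeb2KO cells of a cluster led by Siglecf, Il1r2 and Ddit4 (49.96% of the library, no WT cell) held 79.0% of the Ccl3 UMIs and 72.9% of the Ccl4 UMIs, at 321 CPM and 302 CPM. In a cluster led by Cx3cr1 and Ccr2 (10.2% of the library), Ccl3 was at 130 CPM and Ccl4 at 216 CPM. Ccl4 was seen in 36.6% of those cells and in 31.4% of the Siglecf-led cells. The study took KCs with Cx3cr1 and Ccr2 but no Siglecf or Timd4 as Zeb2+/- cells, putatively monocyte-derived. Immediate early genes were at 4957 CPM in the Siglecf-led cells, and at 3757 CPM in Zeb2KO and 1979 CPM in WT KCs. Their part in these levels was not tested. The Siglecf-led cells had Pf4 at 88.8 CPM, against 200.1 CPM in the largest WT KC cluster and 447 CPM to 686 CPM in 7 other clusters of at least 50 cells of the Zeb2KO library. Pf4 was also low in its other 2 such clusters, at 51.4 CPM in one of 106 cells led by Pglyrp1 and at 151 CPM in one led by Cxcl9. A small cluster led by Alox15, Prg4 and Slpi held much of 3 other members. It comprised 68 cells of the WT library (1.75%), 48 of the Zeb2KO library (1.26%) and 1 of the Nr1h3fl/fl WT library. In WT KCs these 68 cells held 68.3% of the Cxcl2 UMIs, 66.4% of the Ccl9 UMIs and 50.02% of the Pf4 UMIs. In Zeb2KO KCs the 48 cells held 46.2%, 42.6% and 29.9%. Without the cluster the 2 WT liver libraries differed by -0.08 for Ccl9 and -0.60 for Cxcl2 on the log2 scale, in place of -1.51 and -2.13, and Pf4 turned from -0.67 to 0.26. Pf4 was then at 209 CPM in WT and 316 CPM in Zeb2KO KCs, a log2 ratio of 0.60 that was not called. Ccl3 and Ccl4 in Zeb2KO KCs then had log2 ratios of 2.59 and 2.38. The cluster led by Cxcl9 had the highest Ccl4 (138 CPM) and Ccl7 (154 CPM) among WT KC clusters of at least 50 cells. In Nr1h3fl/fl WT KCs its 49 cells held 51.7% of the Cxcl2 UMIs.

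In Zeb2KO SMs, 13 cells (0.433%) in a cluster led by F13a1, Lyve1 and Retnla held 71.3% of the Pf4 UMIs, 60.9% of the Ccl7 UMIs and 45.3% of the Ccl2 UMIs. Pf4 was at 4440 CPM in those cells and at 9.38 CPM in the remaining Zeb2KO SMs, against 8.91 CPM in WT SMs. The SM call of Pf4 thus rested on 13 cells, whereas the log2 ratio of Ccl3 in SMs was 2.01 without them. A cluster led by Skint3, Dpep2 and Mcoln3 held 698 Zeb2KO SMs (23.3%) and 0.0724% of filtered WT SMs. It held 75.3% of the Ccl3 UMIs of Zeb2KO SMs, at 90.6 CPM, and 62.1% of the Ccl4 UMIs, at 223 CPM. In WT CMs Ccl8 ran from 180.0 CPM to 2454 CPM over 11 clusters, and Pf4 from 1481 CPM to 8774 CPM. A cluster led by Retnla, C4b and Ms4a8a, with 3.90% of WT and 8.73% of Zeb2KO CMs, had Ccl6 at 2464 CPM and 2537 CPM, nearly the same level in both genotypes.

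**Figure D4:**
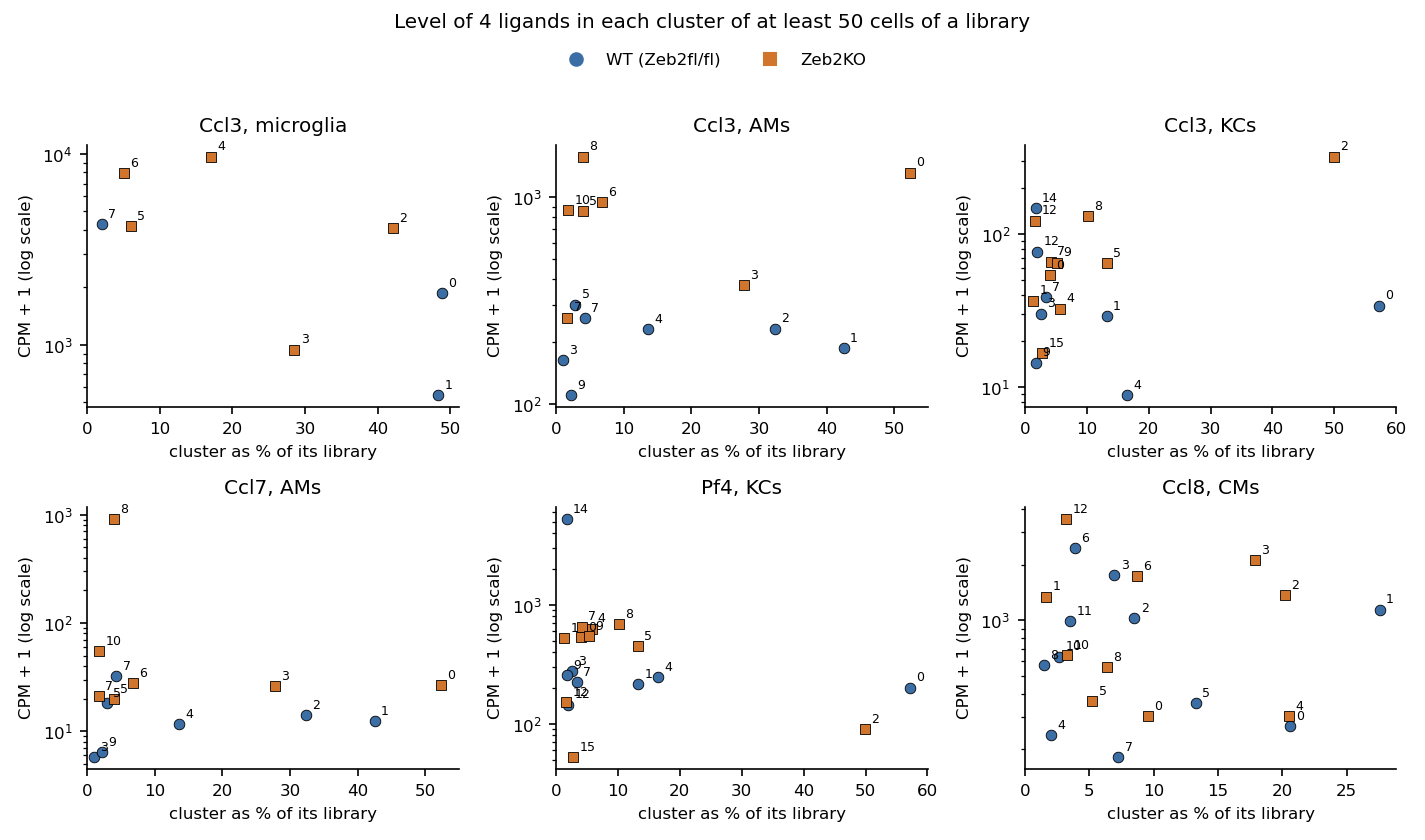
Level of 4 ligands (CPM plus 1, log scale) in each cluster of at least 50 cells of a library against the share of the library (%) in that cluster, in the 6 panels named above them; circles are WT, squares Zeb2KO, and numbers name clusters of 1 tissue. The cluster numbered 8 stands above all other AM clusters for Ccl7 (914 CPM), and the WT cluster numbered 14 above all other KC clusters for Pf4 (5296 CPM).

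Zeb2KO cells were also split into those of clusters apart from WT (clusters whose share of the Zeb2KO library was 9-fold or more that of the WT library) and the rest. Apart clusters held 99.7% of Zeb2KO microglia, 90.9% of AMs, 76.2% of KCs, 75.8% of SMs and 23.7% of CMs, so that in microglia 10 cells were left and no comparison was made. In KCs, Ccl3 was at 242 CPM in the cells apart and 65.8 CPM in the others (197 CPM in all), and Ccl4 at 244 CPM and 76.9 CPM. In KCs the cells apart were lower in Pf4 (245 CPM and 999.6 CPM), Cxcl2 (17.1 CPM and 62.4 CPM) and Ccl9 (15.6 CPM and 81.4 CPM), and the others included the cluster led by Alox15. In AMs, Cxcl16 was at 80.7 CPM and 74.4 CPM, and Ccl9 at 201 CPM and 219 CPM. For these genes both groups of Zeb2KO AMs lay far above WT AMs. Ccl2 (343 CPM and 151 CPM) and Ccl7 (76.7 CPM and 26.9 CPM) were at least 2-fold higher in the AMs apart. They were 2 of 8 members above the floor, against 1.08% of all genes above it. The other Zeb2KO AMs included a dividing cluster (3.94% of the filtered cells). The AMs apart included the cluster led by C1qa, with 43.4% of the Ccl2 UMIs and 66.1% of the Ccl7 UMIs of the library. Without that cluster, Zeb2KO AMs as a whole had Ccl2 at 194 CPM and Ccl7 at 25.8 CPM. In SMs, Ccl2, Ccl3, Ccl4 and Pf4 were at least 2-fold higher in the cells apart. They were 4 of 6 members, against 1.21% of all genes above the floor. Ccl3 was at 35.7 CPM and 10.1 CPM, and Ccl4 at 102 CPM and 48.7 CPM. Of these 4, only Ccl4 reached 20 CPM in both groups, and the SMs apart included the 13 cells led by F13a1. In CMs, Pf4 was at 1492 CPM in the cells apart and 4901 CPM in the others. Ccl7 was at 461 CPM and 1055 CPM, and Ccl6 at 319 CPM and 680 CPM. These were the 3 of 10 members at least 2-fold lower, against 6.15% of all genes above the floor. Cxcl2 was at 2167 CPM and 1192 CPM (log2 ratio 0.86). With clusters made at a resolution of 0.4, the log2 ratio of cells apart over the others turned to 0.64 for Ccl7 and 0.34 for Pf4 in CMs. Clusters were made on the same cells, so these are descriptions with no test.

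Some other chemokine ligands differed between genotypes in single tissues. Of 27 others in the tables, 8 had at least 20 CPM in a library. Cxcl13, a B cell attractant, was at 304 CPM in WT KCs, 431 CPM in Nr1h3fl/fl WT KCs and 50.4 CPM in Zeb2KO KCs (log2 ratio -2.57 against Zeb2fl/fl). Ccl24, an eosinophil attractant, was at 709 CPM in Zeb2KO SMs and 132 CPM in WT SMs (log2 ratio 2.41), and was higher in KCs, with 1003 CPM in WT and 1136 CPM in Zeb2KO. Ccl12, another CCR2 ligand, was at 613 CPM in Zeb2KO CMs and 261 CPM in WT CMs (log2 ratio 1.23), in the tissue where none of the 10 members was called. Ccl5 was at 75.7 CPM in Zeb2KO and 3.57 CPM in WT microglia (log2 ratio 4.07). Cxcl1, which shares its receptor with Cxcl2, was at 125 CPM in Zeb2KO and 49.7 CPM in WT AMs (log2 ratio 1.32), and Cxcl3 at 7.30 CPM and 31.1 CPM (-1.95). Cxcl9 and Cxcl10, interferon-induced ligands, were not called in any of the 5 pairs.

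Among 23 receptors, 10 had at least 20 CPM in a library. Cxcr2, the receptor of Cxcl2, was at 178 CPM in Zeb2KO AMs and 2.70 CPM in WT AMs (log2 ratio 5.597) and at 96.2 CPM in Zeb2KO and 0.892 CPM in WT microglia (5.68). Cxcr1 was at 107 CPM and 4.55 CPM in AMs. Ccr1, the receptor of Ccl3, Ccl6 and Ccl9, was at 217 CPM in Zeb2KO and 41.8 CPM in WT microglia (2.35) and at 150 CPM and 59.7 CPM in AMs (1.31). In Zeb2KO KCs 3 of the 6 receptors above the floor were called higher (5 of 6 against Nr1h3fl/fl WT), where 3.43% of all genes were (4.28% against Nr1h3fl/fl WT). They were Ccr3 (238 CPM and 24.8 CPM), Cx3cr1 (72.4 CPM and 7.40 CPM) and Ccr2 (62.2 CPM and 8.65 CPM). A KC cluster led by Cx3cr1 and Ccr2 took 8.79% of filtered Zeb2KO and 0.578% of filtered WT cells, and its part in these levels was not tested. Cx3cr1, the fractalkine receptor of microglia, was at 926 CPM in Zeb2KO and 2923 CPM in WT microglia (-1.66), and Ccr2 was lower in Zeb2KO CMs (39.7 CPM and 98.7 CPM). Ccrl2 was called higher in microglia (1.18) and AMs (1.18), Cx3cr1 was called lower in SMs (20.9 CPM and 65.3 CPM), and Cxcr4 was called in none of the 5 pairs. Ccr7 was at 20.1 CPM in Zeb2KO and 40.0 CPM in WT SMs, which was not called. Neutrophil markers, a list that holds Cxcr2 itself, summed to 336 CPM in Zeb2KO and 36.6 CPM in WT AMs and to 458 CPM and 197 CPM in microglia, with 2 of 7 markers (AMs) and 5 of 7 (microglia) at 0 UMIs in the Zeb2KO libraries. In AMs Csf3r was at 95.95 CPM in Zeb2KO and 12.0 CPM in WT, Mmp8 at 58.2 CPM and 21.8 CPM, Ltf at 3.57 CPM and 0.109 CPM, and Retnlg had 5 and 0 UMIs. In microglia Csf3r was at 362 CPM and 196 CPM, and Mmp8 and Ltf had 0 UMIs in Zeb2KO and 1 UMI in WT. The granule genes Camp and Ngp were at 0 UMIs in both genotypes of AMs and microglia. The part of these markers in the receptor levels was not tested.

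The NF-kB response and immediate early lists, of genes that often rise together with these ligands, differed from each other. Of the 17 NF-kB response genes, 8 were called higher and 1 lower in microglia (16 above the floor, median log2 ratio 1.002; 4.27% and 4.07% of all genes were), with Tnf at 565 CPM in Zeb2KO and 51.5 CPM in WT, Il1b at 602 CPM and 133 CPM, Il1a at 597 CPM and 219 CPM, and Cd14 lower at 264 CPM and 532 CPM. Nfkbia, Nfkbiz and Cd83 were also higher there. In AMs 3 were higher and 2 lower (4.35% and 7.33% of all genes), with Il1b at 1134 CPM and 427 CPM, Il1a at 218 CPM and 67.4 CPM, Cd14 at 692 CPM and 142 CPM, and Tnf lower at 61.1 CPM and 264 CPM. In CMs 3 were higher (1.07% of all genes), among them Il1rn (266 CPM and 96.3 CPM) and Ptgs2 (106 CPM and 35.1 CPM). In KCs 2 were higher (3.43% of all genes), whereas 0 of 13 were called against Nr1h3fl/fl WT (8.35% of all genes were). In SMs 1 was higher and 1, Cd14, lower (2.3% and 0.825%). Of the 16 immediate early genes, 8 were higher in KCs, against 3.43% of all genes (Fos, Jun, Ier5, Dusp1, Zfp36 and Btg2 of at least 100 CPM) and 6 lower in SMs, against 0.825% (Fos, Fosb, Jund and Atf3 of at least 100 CPM). In AMs 4 were higher, Ier3 and Atf3 the abundant ones, and 1 was lower, Egr1. None was called in microglia or CMs. Against Nr1h3fl/fl WT, 13 of the 16 were higher in Zeb2KO KCs (4.28% of all genes), and 5 of 15 were lower in Nr1h3fl/fl WT than in WT KCs (0.792%), so part of this list also differed between the 2 WT liver libraries.

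Over the 11 libraries, the members whose levels were most alike were Ccl2 and Ccl3 (Pearson r of log2 CPM plus 1 of 0.91), Ccl2 and Ccl9 (0.91), Ccl8 and Pf4 (0.90), Ccl2 and Ccl7 (0.89) and Ccl3 and Ccl4 (0.89). Ccl4 and Ccl6 had -0.22. Among 4869 genes of at least 50 CPM, the 2 most like Pf4 were Clec10a (0.99) and Cd209g (0.96), both lectins of macs, and those most like Ccl8 were Dcn and Fxyd2 (both 0.96). Dcn is 1 of 6 fibroblast markers, which summed to 160 CPM in WT CMs, 113 CPM in Zeb2KO CMs and at most 9.30 CPM elsewhere. Their part in that r was not tested. Those most like Cxcl2 were Cxcl1 (0.95) and Agpat4 (0.93). For Ccl3 they were Clec5a and Coro1a (both 0.95), for Ccl4 Tnfrsf13b (0.96) and Hspa8 (0.95), for Ccl2 Tonsl (0.95) and Nupr1 (0.91), for Ccl7 Ppia (0.97) and Fdps (0.89), for Ccl6 Hcfc1r1 and Ubxn1 (both 0.95), for Ccl9 Selk (0.94) and Trappc3 (0.93) and for Cxcl16 Park7 (0.96) and Fcer1g (0.94). The libraries share a tissue in pairs and differ in depth, so these values describe 11 points from 5 tissues.

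Over the cells of 1 library, the highest Pearson r of any pair of members was that of the neighbours Ccl3 and Ccl4 in Zeb2KO microglia. It was 0.66 there (log2 of UMIs scaled to a common total per cell, plus 1), where 92.3% of cells had a UMI of both, and 0.52 in WT microglia, where 45.1% did. In CMs the r of Ccl3 and Ccl4 was 0.56 in both genotypes. Ccl2 and Ccl7 had 0.50 in WT CMs and 0.55 in Zeb2KO CMs, and Ccl6 and Ccl9 had 0.44 and 0.4998. Cxcl16 went against Pf4 in CMs (-0.40 in WT and -0.27 in Zeb2KO) and against Ccl9 (-0.31 and -0.28). These values come from sparse counts of cells that share a library.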

How the data were processed

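Macs sorted from 5 tissues of WT and Zeb2KO mice were profiled by 10x Genomics single-cell RNA-seq. According to the study's methods, KCs and AMs were sequenced on a NextSeq500 and the other macs on a HiSeq, and both libraries of a pair were run on the same kind of instrument. The authors processed reads with Cell Ranger against mm10, per the submitters' processing notes, and deposited raw UMI counts per gene and barcode, which are the unit used. CPM, ratios and shares were computed here from those counts.

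Cells were dropped when log UMIs or log detected genes lay over 3 median absolute deviations from the library median, or mitochondrial percent lay that far above it (4.66% to 9.22% of barcodes). Cells of a tissue were clustered in scanpy 1.11.5 with leidenalg 0.10.2 (2000 variable genes without chemokine ligands and receptors, 30 components, 15 neighbours, resolution 0.8), and clusters that met a marker rule for another cell type were left out. An SM cluster led by B cell genes and a CM cluster led by smooth muscle genes did not meet it and were kept, and leaving them out too was tried after seeing the data. Scrublet called at most 0.0801% of cells, so it had not worked, and leaving out the top 5% of cells by its score was tried. UMIs were summed per library. A common shift was tested in edgeR 4.0.16 (TMM, filterByExpr, glmQLFit and glmQLFTest, R 4.3.3) with Benjamini-Hochberg adjustment, and in DESeq2 1.42.0. Alternatives were floors of 5 CPM and 50 CPM, a pseudocount of 5 CPM, TMM factors, other choices of cells, another liver control, thinning to 1000 UMIs, other resolutions and leaving out each tissue. The genes named were the 10 members, other ligands and receptors of at least 20 CPM in a library, NF-kB response and immediate early genes of at least 100 CPM that were called, and the 2 genes most like each member. Of the receptors, 1 under this rule is not reported here. Members and lists were chosen with earlier results of these data known. Intervals and limits for 0 UMIs (3 UMIs) cover counting error only.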

Additional observations from a re-analysis of the deposited data

Results flagged for a closer look

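Ccl9 stood out because 2 tissues moved in opposite directions under the same contrast. Its log2 ratio of Zeb2KO over WT was 2.76 in AMs and -1.75 in microglia, a difference of 4.51. Each tissue had 1 library per genotype, so the difference was not tested. The direction in each of these tissues was the same under every alternative tried for them.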

How the results depend on the processing

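Counts of called members stayed within 1.5 times under 50 of 56 alternatives over the 5 tissues. In SMs, where 2 were called, 5 were called at a floor of 5 CPM (against 4.49% of all genes), 0 at a floor of 50 CPM (2.94%), and 1 each with all cells that pass the filter (2.58%), with all deposited barcodes (2.67%), and without the clusters led by F13a1 (SMs), C1qa (AMs), Alox15 (KCs) and Pim1 (microglia), an alternative chosen after seeing the data (3.14%). That last alternative also ended the calls of Ccl4 in microglia (log2 ratio 0.83) and Ccl7 in AMs (0.97). In KCs, 5 members were called against the Nr1h3fl/fl library (8.35% of all genes). For the common shift, 3 members were called by DESeq2 with all 5 tissues. In edgeR 0 were called, with all 5 tissues and in each fit that left out a tissue. Leaving out a tissue was not tried with DESeq2. Fold changes that were not called changed sign without a tissue block for Ccl9 (-0.13), Cxcl16 (-0.0807) and Pf4 (-0.24), and when a tissue was left out for Ccl6 (-0.0567 without AMs to 0.53 without KCs), Ccl8 (-1.21 without CMs to 0.47 without KCs) and Ccl9 (-0.33 without AMs to 0.96 without microglia). Without thinning, the number of members with a higher share in Zeb2KO was 3 in CMs and 7 in SMs, 3 of the 7 in SMs from the 5 members above the floor (12.7% and 51.4% of all genes above it), the number with a lower share in AMs was 0 (17.5%), and the difference for Cxcl2 in AMs turned to 0.756 percentage points. At a resolution of 0.4, 109 Zeb2KO CMs lay apart from WT, in place of 921 at 0.8. In those 109 CMs 1 member was 2-fold higher (2.41% of all genes above the floor were) and 3 members were 2-fold lower (3.87%). The log2 ratios of those 109 cells over the other CMs turned to 0.64 for Ccl7 and 0.34 for Pf4. The cause of these changes was not tested. No paired analysis was possible because the labels give the groups no shared replicate numbers beyond 1 library each, apart from the tissue block of the main fit. Depth limits levels under 20 CPM and shares in SMs, the shallowest library.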
